A study of Mus musculus with 19 samples.

Results

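The 9 HoxB genes of groups 1 to 9, Hoxb1 to Hoxb9, were followed in fibroblasts grown out of 7 organs of adult mice. They are 9 of the 20660 mouse genes named on the expression array, and were taken as every gene of the HoxB cluster up to group 9 that had a probe, with Hoxb13 kept apart. The array carried 10 probes for them, 1 each except for Hoxb3, which had 2. All 9 passed the filter on dim probes (a signal well above background on at least 2 arrays), Hoxb1 only through 2 arrays of high background.

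Hox genes encode homeodomain transcription factors that give cells their position along the head-to-tail axis of the embryo. They lie in 4 clusters, and within a cluster the order of the genes on the chromosome matches the order in which they are switched on and how far forward they are expressed. The HoxB cluster lies on chromosome 11, with Hoxb1 at the anterior end and Hoxb9, followed at a distance by Hoxb13, at the posterior end. Adult fibroblasts are known to keep part of this positional pattern in culture.

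Kidney and skin gave 2 samples each, and heart, lung, liver, tail and gonad gave 3 each. Mice were 8 to 10 weeks old, the minced tissue was digested with trypsin or collagenase, and the cells were kept for 5 days in serum medium. The labels name no strain, sex or treatment, do not say whether gonad means testis or ovary, nor which enzyme served which organ. Whether the samples of an organ came from different animals is not given, so p-values measure only the spread between these samples. Lung replicate 2 had no scanner file in the sources used here, which left 18 arrays. Each array measured the RNA of a whole culture, so fewer cells with a transcript and less transcript per cell cannot be told apart.

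Start-site sequences in the reference tables covered 3 of the 9 genes, which happen to represent the anterior end (Hoxb1), the middle (Hoxb4) and the posterior part (Hoxb8) of the cluster. They are shown because these genes differ in where they were detected: Hoxb1 nowhere beyond high-background arrays, Hoxb4 on every array, and Hoxb8 on every array but 2 of heart. Each line gives the 250 bases before the start site from RefSeq (GRCm38.p6, plus strand), with capitals at matches to a paired PBX and HOX motif (TGATNNAT) or to a motif of CDX and posterior HOX proteins (TTTATNG), searched on both strands; no matches overlapped.
Hoxb1, chr11:96365508-96365757: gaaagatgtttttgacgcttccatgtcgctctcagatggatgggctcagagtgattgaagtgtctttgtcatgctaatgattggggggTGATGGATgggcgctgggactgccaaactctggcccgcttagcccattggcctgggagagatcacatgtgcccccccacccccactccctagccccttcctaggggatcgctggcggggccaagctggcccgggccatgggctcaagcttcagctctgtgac
Hoxb4, chr11:96318017-96318266: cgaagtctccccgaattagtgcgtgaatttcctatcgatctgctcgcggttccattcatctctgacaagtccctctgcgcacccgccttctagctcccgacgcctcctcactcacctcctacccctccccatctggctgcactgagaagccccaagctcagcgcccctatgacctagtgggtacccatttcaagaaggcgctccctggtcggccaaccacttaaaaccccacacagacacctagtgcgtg
Hoxb8, chr11:96281655-96281904: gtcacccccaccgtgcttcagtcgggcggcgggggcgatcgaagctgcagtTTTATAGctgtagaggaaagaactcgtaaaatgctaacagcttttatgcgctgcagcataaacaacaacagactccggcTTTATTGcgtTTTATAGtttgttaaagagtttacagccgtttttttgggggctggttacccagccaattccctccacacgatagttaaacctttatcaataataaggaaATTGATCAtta
The PBX and HOX motif occurred 1 time in the Hoxb1 window, 0 times at Hoxb4 and 1 time at Hoxb8. The CDX motif occurred 3 times in the Hoxb8 window and 0 times in the others. Of all 32851 windows of this length, 7.68% held the first motif and 9.81% the second, on either strand. A match is a run of letters and not a binding site.

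Signals are given as log2 of the processed spot intensity relative to the 75th percentile of the same array, so that 0 is the level of a gene brighter than most. Different probes bind with different strength, and levels are therefore compared between organs for 1 gene, never between genes. The scanner software flags a spot as well above background or not. Dark control spots read high on gonad 3, heart 1, kidney 1, kidney 2 and tail 2, the 5 high-background arrays, on which 84.8% to 96.5% of probes were flagged well above background, against 50.1% to 76.9% on the 13 other arrays. Both kidney arrays are among them, so background and organ cannot be told apart for kidney. Fibroblast markers (15 of 15) were well above background on all arrays of every organ but kidney, where 14 were. The summed signal of these markers, in multiples of each array's 75th percentile, was 1652 to 2439 in gonad, liver, lung, skin and tail, 536 to 2658 in heart and 192 to 347 in kidney.

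**Figure D1:**
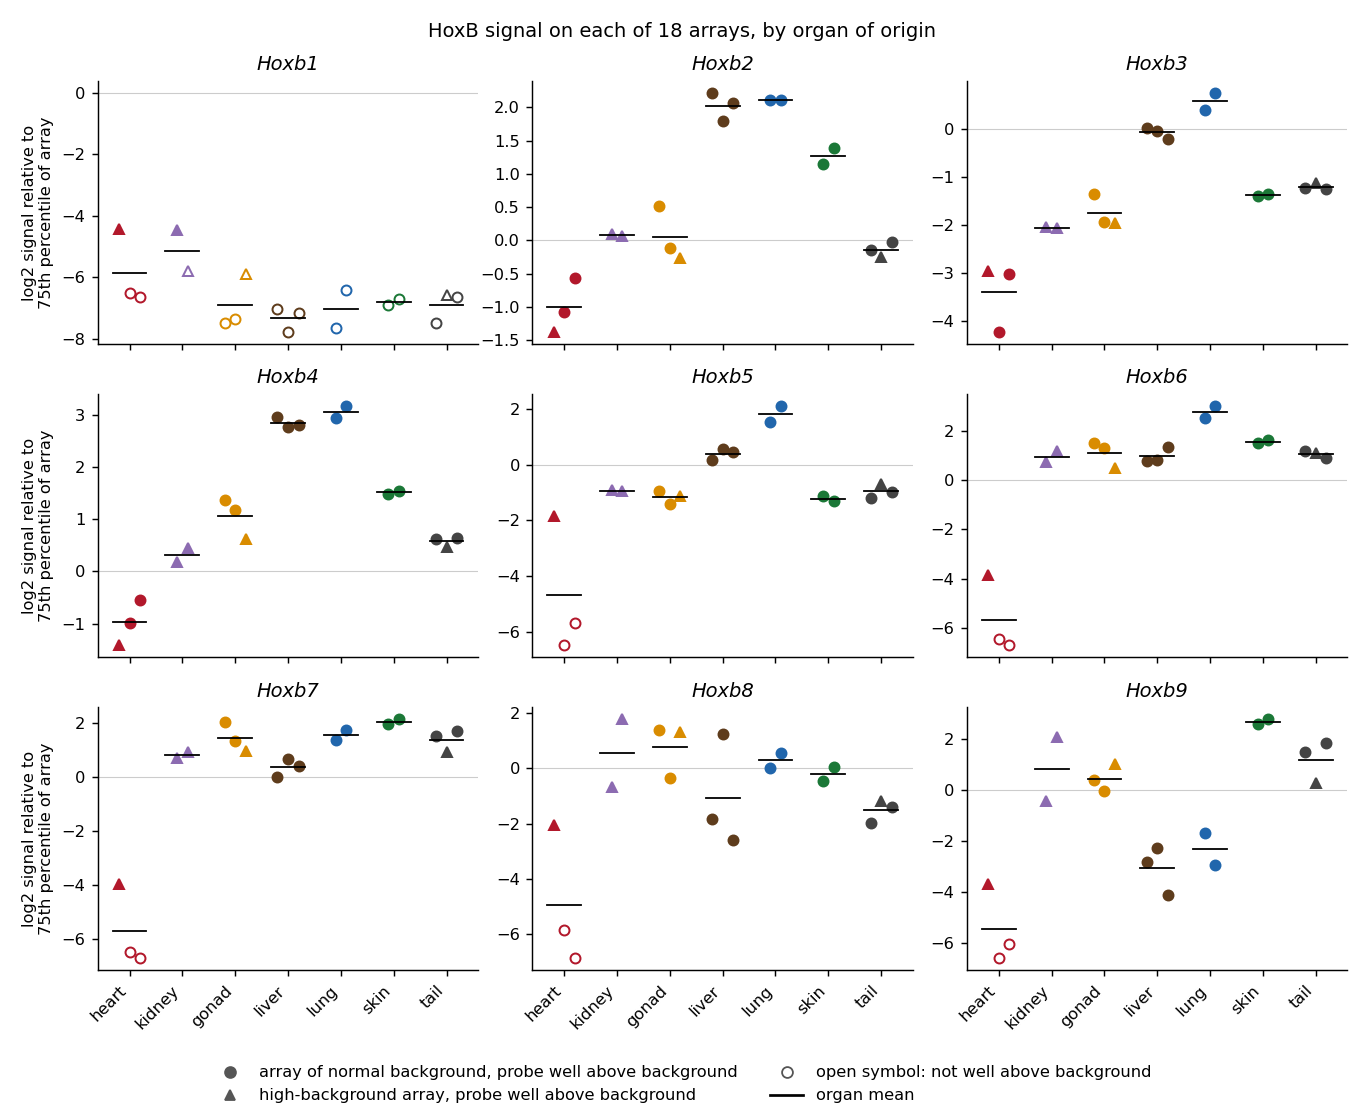
Log2 signal of each HoxB gene (vertical axis, relative to the 75th percentile of the array; scales differ between panels) on each of 18 arrays, by organ of origin. Points are arrays, triangles the 5 high-background arrays, open symbols signals not well above background, and bars organ means; heart replicates 2 and 3 are open for Hoxb5 to Hoxb9 while Hoxb2 to Hoxb4 are filled in all organs.

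Detection split the cluster into 3 blocks. Hoxb2, Hoxb3 and Hoxb4 were well above background on 18 of 18 arrays. Hoxb5, Hoxb6, Hoxb7, Hoxb8 and Hoxb9 were well above background on 16 of 18, and the 2 arrays without them were the same for all 5 genes, heart 2 and heart 3. Heart 1, a high-background array, was the only heart array on which these 5 passed. Hoxb1 was above background on 2 arrays, heart 1 and kidney 1, and on 0 of the 13 arrays of normal background.

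Differences among organs were tested with limma over 20191 genes, with p-values adjusted over all of them. By the F test over the 7 organs, 8 of the 9 HoxB genes differed (adjusted p from 3.3e-05 for Hoxb4 to 0.026 for Hoxb8), against 36.9% of all genes. Hoxb1 did not pass (adjusted p = 0.13). Hoxb1 is best known for setting the identity of a segment of the hindbrain. Its signals lay between -7.79 and -4.42, with the 2 brightest on heart 1 and kidney 1, so these cultures gave no level for it on an array of normal background.

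Each organ was then set against the average of the remaining 6 organ means. A gene was called higher or lower at an adjusted p under 0.05 with a log2 difference of at least 1. The median difference of all genes was close to 0 in liver and lung (0.01 and 0.02), -0.09 in gonad and in heart, -0.10 in kidney, 0.37 in skin and 0.33 in tail, and differences are read against it.

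**Figure D2:**
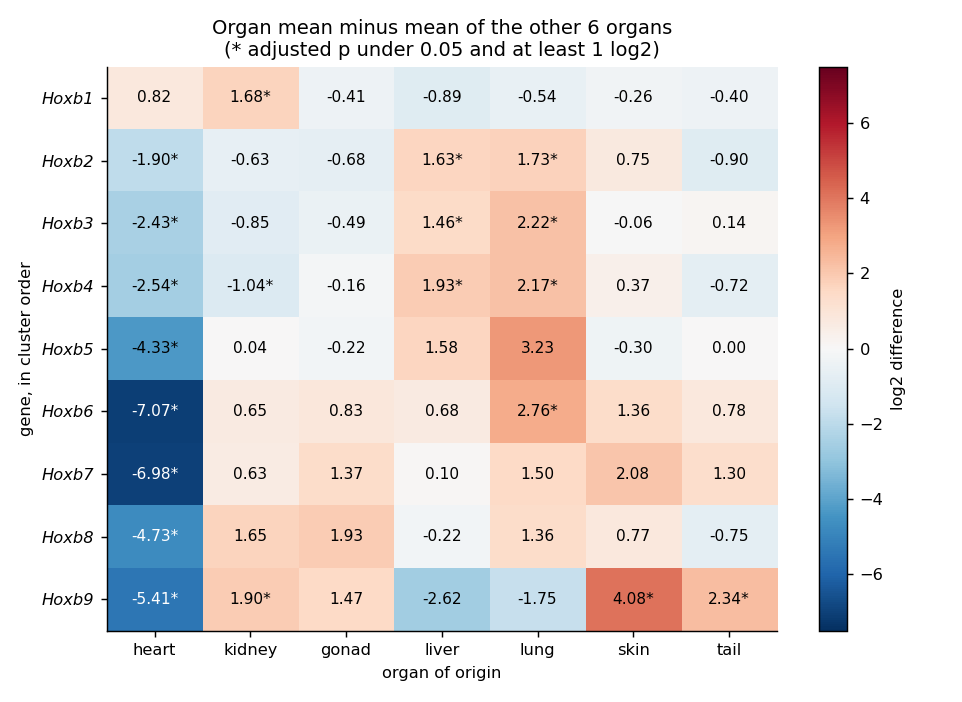
Log2 difference of each organ mean from the mean of the other 6 organs, with genes in cluster order from Hoxb1 at the top to Hoxb9 at the bottom; asterisks mark calls (adjusted p under 0.05 and at least 1 on the log2 scale). Heart is low from Hoxb2 to Hoxb9, liver and lung are high from Hoxb2 to Hoxb4, and skin and tail are high at Hoxb9.

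Heart fibroblasts had the lowest signal of nearly the whole cluster. Of the 9 genes, 8 were lower in heart, Hoxb2 to Hoxb9, against 2.47% of all genes called lower there, and 0 were higher (background 1.47%). The median difference of the 9 genes was -4.33, against -0.09 for all genes. For Hoxb5 to Hoxb9, heart 2 and heart 3 were not well above background. The fitted differences of these genes, and the median with them, therefore depend on signals at the floor of the arrays. Only lower bounds are given for them on the 13 arrays of normal background, and the sizes themselves were not measured.

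The anterior genes were reduced in heart but still measured. Hoxb2, a gene of hindbrain segments, read -1.37, -1.07 and -0.57 on the 3 heart arrays and -0.26 to 2.22 on the other 15, without overlap. Its difference was -1.90 ± 0.23 (SE, limma adjusted p = 0.00026). Hoxb3, its neighbour in the cluster, read -2.95, -4.23 and -3.03 in heart and -2.06 to 0.75 elsewhere, again without overlap (difference -2.43 ± 0.26, limma adjusted p = 0.00011). The other probe of Hoxb3 gave -1.28 with an adjusted p of 0.42. On it heart 1 read -0.67, close to the kidney arrays, while heart 2 and heart 3 read -3.68 and -3.96. Hoxb4, also known for expanding blood stem cells when overexpressed, read -1.41, -0.98 and -0.54 in heart and 0.18 to 3.17 elsewhere (difference -2.54 ± 0.23, limma adjusted p = 2.9e-05).

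From Hoxb5 on, heart 2 and heart 3 gave no signal well above background. Hoxb5, which acts in the development of the lung and the enteric nervous system, read -6.48 and -5.69 on these arrays and -1.86 on heart 1, against -1.42 to 2.09 elsewhere (difference -4.33 ± 0.64, limma adjusted p = 0.0012). Hoxb6, an early marker of lateral mesoderm, read -6.46, -6.70 and, on heart 1, -3.85, against 0.49 to 3.00 elsewhere (difference -7.07 ± 0.46, limma adjusted p = 1.6e-06). Heart 1 lay above the other heart arrays for both genes and still below every array of another organ. Hoxb7, whose promoter is widely used to mark the ureteric bud, read -6.46, -6.71 and -3.97 against 0.00 to 2.13 elsewhere (difference -6.98 ± 0.45, limma adjusted p = 1.6e-06).

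Hoxb8 and Hoxb9 were also lower in heart, with overlap through heart 1. Hoxb8, known for holding blood progenitors in a proliferating state, read -5.86 and -6.88 on heart 2 and heart 3 and -2.06 on heart 1, while liver 3 read -2.60 (difference -4.73 ± 0.91, limma adjusted p = 0.0075). This call was lost without heart 2 (adjusted p = 0.07) and without heart 3 (adjusted p = 0.085). Hoxb9, which patterns the thoracic skeleton, read -6.62 and -6.07 and, on heart 1, -3.72, while liver 3 read -4.12 (difference -5.41 ± 0.64, limma adjusted p = 0.00021).

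Without the 5 high-background arrays, 13 arrays of 6 organs remain, and Hoxb1 drops out as dim. All 8 other genes were then lower in heart (background 6.07%). For each of the 8 both heart arrays also lay below the other 11, a separation for which no share of all genes is given. Because the heart probes of Hoxb5 to Hoxb9 were not above background there, folds are lower bounds, computed from the dimmest signal still flagged as measured on each heart array. The mean of the 5 other organs was at least 19-fold above heart for Hoxb5, at least 66.2-fold for Hoxb6, at least 62.0-fold for Hoxb7, at least 16.8-fold for Hoxb8 and at least 19.9-fold for Hoxb9. The widest single distances were Hoxb6 in lung, at least 153-fold above heart, and Hoxb9 in skin, at least 144-fold. Hoxb9 in liver was only at least 2.69-fold above heart, since liver itself was near the bottom. The size of the heart difference depended on the treatment of the background: with normexp and quantile normalization it was -4.39 for Hoxb6 and -4.46 for Hoxb7, and both stayed called.

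**Figure D3:**
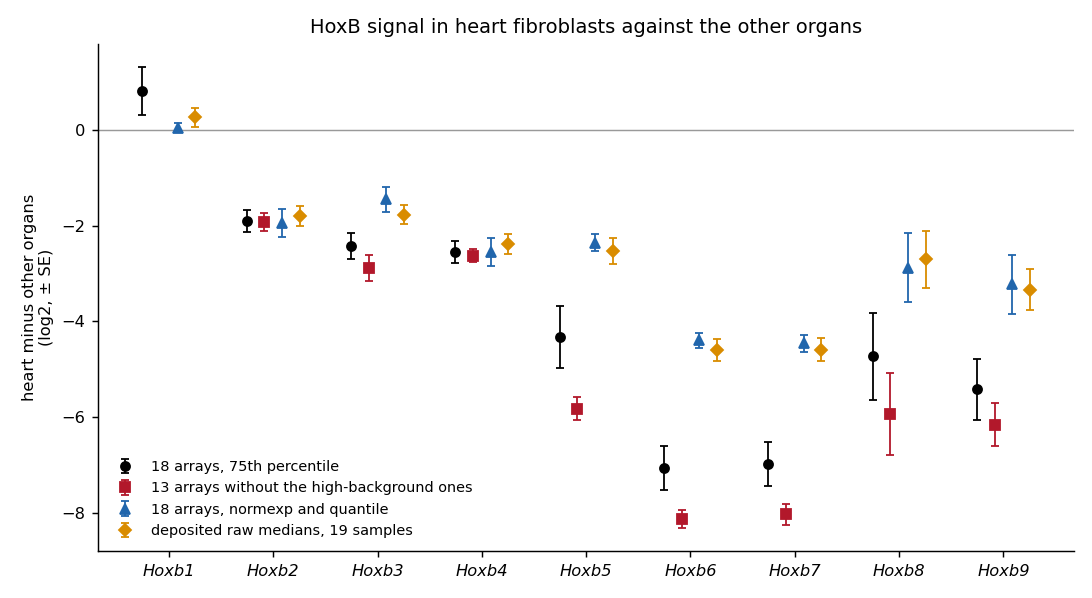
Log2 difference between heart and the other organs (vertical axis, ± SE) for each HoxB gene under 4 treatments of the data, shown by colour and symbol. Hoxb2 to Hoxb9 lie below 0 in all 4, and the differences of Hoxb5 to Hoxb9 are largest on the 13 arrays without the high-background ones, where Hoxb1 was not tested.

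All 3 slides that carried the arrays held a heart sample beside 4 to 6 other organs. On each slide heart lay below the mean of the others for all 8 genes, again with no share of all genes given. For Hoxb6 the distance was -7.89, -5.52 and -7.44 on the 3 slides, and for Hoxb2 it was -2.06, -2.41 and -0.97. Other markers moved with heart. Of 6 endothelial markers, 2 were lower in heart and 1 was higher. The epithelial keratins Krt18 (-4.65 ± 0.65, limma adjusted p = 0.00082) and Krt8 (-4.20 ± 0.82, limma adjusted p = 0.0082) were lower, 2 of 7 epithelial markers. The summed signal of the 7 was 0.305 to 7.13 in heart, 0.968 to 2.25 in tail, 4.31 to 7.43 in gonad, 11.2 to 12.3 in skin, 6.35 to 63.1 in liver, 22.8 to 68.1 in lung and 82.1 to 96.6 in kidney. Their part in the HoxB differences was not tested. Of the heart's own regulators, Tbx20, Gata4 and Nkx2-5 were higher, 3 of 4 listed.

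Lung fibroblasts had the highest signal of the genes from Hoxb2 to Hoxb6. Hoxb2, Hoxb3, Hoxb4 and Hoxb6 were called higher in lung, 4 of 9 against 0.475% of all genes, and 0 were lower (background 0.168%). Hoxb3 read 0.39 and 0.75 on the 2 lung arrays, above all 16 others, of which the highest was 0.02 on liver 1 (difference 2.22 ± 0.31, limma adjusted p = 0.0068). Hoxb6 read 2.52 and 3.00, above all others, of which skin 2 was next at 1.61 (difference 2.76 ± 0.54, limma adjusted p = 0.040). Hoxb5 read 1.51 and 2.09, also above all others, the next being liver 2 at 0.57. Its difference of 3.23 ± 0.76 did not pass over 18 arrays (limma adjusted p = 0.083).

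Among the 13 arrays of normal background Hoxb5 and Hoxb7 passed as well, at 3.64 and 1.74, for 6 of 8 genes called higher in lung (background 1.56%). Hoxb2 read 2.11 on both lung arrays, within the liver values of 1.79 to 2.22, and Hoxb4 read 2.95 and 3.17, with liver at 2.78 to 2.97. Under other processing the call of Hoxb2 was lost with normexp and with quantile normalization, and those of Hoxb3 and Hoxb4 with quantile normalization. That of Hoxb3 was also lost with the mean of its probes, and that of Hoxb6 with median scaling and with the slide as a block. With the replicate number as a block the calls of Hoxb2 and Hoxb6 were lost too. All 4 lung calls were lost when either lung 1 or lung 3 was left out, which leaves 1 lung array assumed to vary like the other organs; the differences themselves then lay between 1.73 for Hoxb2 and 3.00 for Hoxb6. The Hoxb6 call was kept in 4 of 18 fits that each left out 1 array, with differences of 2.52 to 3.00. By the other probe of Hoxb3 the lung difference was 0.77 (limma adjusted p = 0.49), although both lung arrays lay above the other 11 arrays of normal background on that probe too.

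The deposited value table holds raw medians of lung replicate 2 as well, in rows that match the other lung samples up to a point after which they sit 1 row off. Up to there it read 2267 for Hoxb2, 848.5 for Hoxb3, 1928 for Hoxb5, 2556 for Hoxb6, 1605.5 for Hoxb7 and 455.5 for Hoxb8, in scanner units. Lung replicates 1 and 3 read 1947 and 2594 for Hoxb5 and 3376 and 3942 for Hoxb6. On the log2 scale of that table lung 2 was 1.73 for Hoxb5, above the highest value outside lung, 0.66, and 2.13 for Hoxb6, above 1.47. Lung 2 thus sat with the other lung samples for these genes, while Hoxb4 and Hoxb9 lie in the shifted rows and were not used.

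Liver fibroblasts shared the high anterior block with lung. Hoxb2, Hoxb3 and Hoxb4 were higher in liver, 3 of 9 against 1.16% of all genes, and 0 were lower (background 0.579%). Hoxb4 read 2.97, 2.78 and 2.80 in liver, overlapping lung and above every array of the 5 other organs, of which skin 2 was highest at 1.54 (difference 1.93 ± 0.23, limma adjusted p = 0.00094). Hoxb2 read 2.22, 1.79 and 2.06 with skin next at 1.15 and 1.39 (difference 1.63 ± 0.23, limma adjusted p = 0.0028). Hoxb3 read 0.02, -0.04 and -0.21 with tail 2 next below at -1.14 (difference 1.46 ± 0.26, limma adjusted p = 0.011). By the other probe of Hoxb3 the liver difference was -0.08 (limma adjusted p = 0.92), so this call rests on 1 of 2 probes. All 3 liver calls were lost with quantile normalization. Endothelial markers moved with liver: 3 of 6 were higher over 18 arrays and 4 of 6 on the 13 arrays (median 3.12), and their summed signal was 8.97 to 26.3 in liver and 9.57 to 24.3 in gonad against 2.95 to 5.41 in the other organs. On the 13 arrays 2 of 5 macrophage and leukocyte markers were also higher in liver, where their summed signal was 6.32 to 23.0, and 2 of 7 epithelial markers were higher in lung. The part of these markers in the HoxB differences was not tested.

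At the posterior end liver went the other way. Hoxb9 read -2.83, -2.29 and -4.12 in liver, overlapping lung (-1.68 and -2.97) and below the arrays of gonad, kidney, skin and tail, a difference of -2.62 ± 0.64 that did not pass over 18 arrays (limma adjusted p = 0.058). Without the high-background arrays it passed, at -2.24 (limma adjusted p = 0.01), as 1 of 8 genes lower in liver (background 3.73%), beside 4 of 8 higher (background 2.55%), Hoxb5 joining Hoxb2 to Hoxb4 at 1.95. Hoxb6 and Hoxb7 in liver, at 0.76 to 1.34 and 0.00 to 0.67, lay among or just below the other non-cardiac organs.

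Hoxb8 had the largest pooled SD between arrays of an organ among the 9 genes, 1.44. In heart its SD was 2.54 (n = 3), with heart 1 above heart 2 and heart 3. Hoxb9 spread slightly more than Hoxb8 in kidney, at -0.47 and 2.07 (SD 1.80, n = 2). In liver Hoxb8 read -1.83, 1.23 and -2.60 (SD 2.03, n = 3) and in kidney -0.69 and 1.76 (SD 1.74, n = 2). These spreads of Hoxb8 exceeded the distance between any neighbouring pair of organs in its order outside heart, and Hoxb8 was called in no comparison without heart. All liver and kidney arrays were well above background for it.

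Skin fibroblasts had the highest Hoxb9 of all cultures. Hoxb9 read 2.58 and 2.75 in skin, above all 16 other arrays, of which kidney 2 was next at 2.07 and tail 3 at 1.81. It was 1 of 9 genes higher in skin (background 0.906%), with a difference of 4.08 ± 0.75 (limma adjusted p = 0.015), and 0 of 9 were lower (background 0.773%). Without skin 1 the difference was 4.16 (limma adjusted p = 0.26) and without skin 2 it was 3.99 (limma adjusted p = 0.39), so the call rests on both skin arrays. Hoxb7 was also brightest in skin, at 1.97 and 2.13, overlapping gonad 1 at 2.04 (difference 2.08 ± 0.54, limma adjusted p = 0.08). On the 13 arrays Hoxb6, Hoxb7 and Hoxb9 were called higher in skin, at 1.63, 2.33 and 4.66, but so were 21.2% of all genes. Epithelial markers moved with skin: Krt14, a keratin of basal epidermal cells, read 2.30 and 2.86 in skin and at most -0.68 elsewhere (difference 5.63), 1 of 7 listed over 18 arrays, and 5 of 7 were higher on the 13 arrays (median 2.92). Of 5 macrophage and leukocyte markers, 2 were higher in skin on the 13 arrays, with a summed signal of 13.7 to 17.7. Their part in the Hoxb9 difference was not tested.

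Tail fibroblasts came next for Hoxb9. It read 1.46, 0.25 and 1.81 in tail, the lowest being tail 2, a high-background array, for a difference of 2.34 ± 0.64 (limma adjusted p = 0.040). It was 1 of 9 genes higher in tail (background 4.58%), and 0 were lower (background 2.49%). The call was lost when any 1 of 11 arrays was left out (tail 1, 2 or 3, skin 1 or 2, gonad 1 or 2, liver 1 or 3, heart 3 or lung 3), with differences of 2.02 to 2.80. With 13 arrays Hoxb9 was higher at 3.42 with Hoxb6 and Hoxb7 at 1.01 and 1.79 (3 of 8, background 18%), and Hoxb2 lower at -1.04 (1 of 8, background 5.53%). The terminal gene of the cluster, Hoxb13, read 5.70 to 6.17 in tail against -7.78 to -2.33 elsewhere, without overlap. It was not well above background on gonad 1, gonad 2, heart 2, heart 3 or any liver or lung array, so no fold is given.

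Gonad fibroblasts gave 0 of 9 genes higher (background 2.27%) and 0 lower (background 0.882%). On the 13 arrays Hoxb6, Hoxb7 and Hoxb9 were called higher there, at 1.46, 1.88 and 1.64 (3 of 8, background 4.64%), and the same count was 1 when heart 1 alone was left out. In kidney Hoxb1 and Hoxb9 were called higher and Hoxb4 lower, but 36.1% of all genes were higher and 39.9% lower there, and nothing is read from these calls. The sign of the Hoxb1 difference in kidney turned with normexp (-0.01) and with quantile normalization (-0.55).

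Organs were also set against each other, 1 pair at a time. Across the 21 organ pairs, 70 of 189 gene and pair combinations were called, against 17.5% of such combinations over all genes, a share raised by the kidney pairs. Of the 70 calls, 54 were kept with normexp and 46 with quantile normalization. Between liver and lung 0 of 9 genes were called, against 0.0495% of all genes, and the difference in Hoxb2 was -0.09 ± 0.33 and in Hoxb4 -0.21 ± 0.33. On the 13 arrays Hoxb6 was lower in liver than in lung, at -1.78 ± 0.22 (limma adjusted p = 0.019, 1 of 8, background 0.398%).

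Liver and lung against skin and tail gave opposite signs at the ends of the cluster. In liver against tail, Hoxb2 (2.16 ± 0.30, limma adjusted p = 0.00058) and Hoxb4 (2.27 ± 0.29, limma adjusted p = 0.00034) were higher and Hoxb9 was lower (-4.25 ± 0.82, limma adjusted p = 0.0067), 2 higher and 1 lower of 9 against 2.71% and 2.6% of all genes. In liver against skin, only Hoxb9 passed (-5.74 ± 0.92, limma adjusted p = 0.0046; 1 of 9, background lower 0.753%), a call lost without skin 1 or skin 2. In lung against skin Hoxb3 was higher (1.95 ± 0.42, limma adjusted p = 0.037; background 0.906%) and Hoxb9 lower (-4.99 ± 1.00, limma adjusted p = 0.028; background 0.431%). The Hoxb3 call was lost in 20 of 31 alternatives, with differences of 0.67 to 2.12, and the Hoxb9 call in 8 of 31, with differences of -5.64 to -3.71; normexp, quantile normalization and the slide block were among them for both. In lung against tail Hoxb2, Hoxb3 and Hoxb4 were higher, at 2.25, 1.78 and 2.48 (3 of 9, background 1.51%; that of Hoxb3 was lost in 9 of 31 alternatives), and Hoxb9 at -3.50 ± 0.92 did not pass (limma adjusted p = 0.064).

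Read along the cluster on the 13 arrays, differences were positive from Hoxb2 to Hoxb5 and negative at Hoxb9, and those between did not follow 1 order. For Hoxb3 this holds for the probe used here, 1 of 2. By its other probe the mean was -1.74 in liver, slightly below -1.68 in skin, and -1.01 in lung. Liver minus skin was 0.75 for Hoxb2, 1.30 for Hoxb3, 1.33 for Hoxb4 and 1.61 for Hoxb5, then -0.58 for Hoxb6, -1.69 for Hoxb7, -0.85 for Hoxb8 and -5.74 for Hoxb9. Of these Hoxb3, Hoxb4 and Hoxb5 were called higher and Hoxb7 and Hoxb9 lower, against 4.57% and 21.1% of all genes. For lung minus skin the change came later: Hoxb6 was still higher at 1.20 (limma adjusted p = 0.011), Hoxb7 was -0.49 and Hoxb9 was -4.99 (4 of 8 higher and 1 lower, backgrounds 4.49% and 15.0%). In lung minus tail Hoxb2 to Hoxb6 were called higher, between 1.72 and 2.90 (5 of 8, background 5.36%), and Hoxb9 lower at -3.96 (1 of 8, background 11%), with Hoxb7 at -0.05. In liver minus tail Hoxb6 was -0.06. Hoxb8 was not called in any of these pairs and was 0.51 in lung minus skin, 1.97 in lung minus tail and 0.61 in liver minus tail, above 0 after Hoxb7 had been below it.

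**Figure D4:**
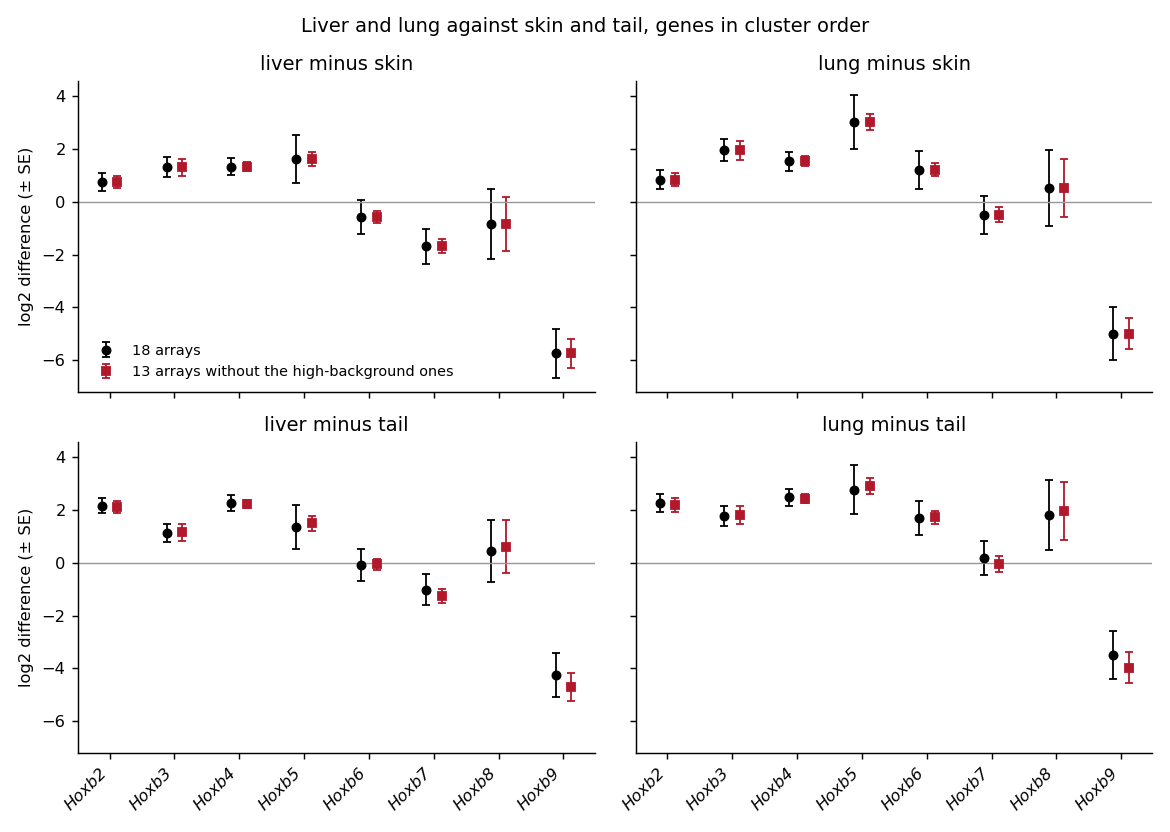
Log2 difference (vertical axis, ± SE) between liver or lung and skin or tail for Hoxb2 to Hoxb9 in cluster order, on all 18 arrays and on the 13 without the high-background ones. In all 4 panels the points lie above 0 from Hoxb2 to Hoxb5 and far below 0 at Hoxb9, and Hoxb8 has the widest error bars.

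Skin and tail differed in 1 gene of 9, Hoxb2, which was higher in skin by 1.41 ± 0.33 (limma adjusted p = 0.033, background 1.57%). This call was lost in 12 of 31 alternatives, among them normexp, quantile normalization, the slide block and the loss of any skin or tail array, with differences of 1.16 to 1.54. Gonad was lower than liver in Hoxb2, Hoxb3 and Hoxb4 (3 of 9, background 0.277%) and lower than lung in the same 3 genes (3 of 9, background 0.426%). The call of Hoxb3 against liver was lost in 21 of 31 alternatives and reversed in 1, its other probe, with differences of -1.96 to 0.10, and the 3 calls against lung were lost without either lung array and with quantile normalization. Gonad was not called apart from skin or tail in any of the 9 (backgrounds 2.75% and 5.68%, either direction). On the 13 arrays Hoxb2 and Hoxb9 were lower in gonad than in skin, at -1.07 and -2.51 (2 of 8, background 26.6%). Its Hoxb9 exceeded that of liver by 3.23 and that of lung by 2.48 on the 13 arrays (limma adjusted p = 0.011 and 0.031, 2 and 1 of 8 higher, backgrounds 2.2% and 2.8%). Against heart, gonad was higher in 7 of 9 genes (background 3.08%), all but Hoxb1 and Hoxb2.

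The order of the organ means put lung first and liver second for Hoxb2, Hoxb3, Hoxb4 and Hoxb5, and heart last for every gene from Hoxb2 to Hoxb9. Lung and liver were called apart for none of the 4. Their arrays overlapped for Hoxb2 and Hoxb4, while both lung arrays lay above all liver arrays for Hoxb3 and Hoxb5. The place of Hoxb3 in this order rests on 1 of its 2 probes. By the other probe its means were -0.65 in kidney, -1.01 in lung, -1.64 in gonad, -1.68 in skin and -1.74 in liver. For Hoxb2 the order went on with skin, kidney, gonad and tail, and the only neighbours called apart were skin and kidney, a comparison that is not read because so many genes differed in kidney. For Hoxb6 the order was lung, skin, gonad, tail, liver and kidney, spanning 2.76 to 0.94, and for Hoxb7 skin, lung, gonad, tail, kidney and liver, spanning 2.05 to 0.36, with no neighbours called apart above heart. For Hoxb9 it was skin, tail, kidney and gonad, then lung and liver, and the largest step between neighbours, 2.76 ± 0.92 from gonad to lung, did not pass (limma adjusted p = 0.29). Hoxb8 ran gonad, kidney, lung, skin, liver and tail, with steps of at most 0.85 outside heart against standard errors of 1.17 or more.

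The profiles of the genes over the 7 organ means were set against each other, as a description over 7 points that share the same arrays and the low heart value. Pearson's r was 0.91 for Hoxb2 with Hoxb3, 0.96 for Hoxb3 with Hoxb4, 0.91 for Hoxb4 with Hoxb5, 0.90 for Hoxb5 with Hoxb6, 0.98 for Hoxb6 with Hoxb7, 0.91 for Hoxb7 with Hoxb8 and 0.67 for Hoxb8 with Hoxb9, while Hoxb1 with Hoxb2 had -0.60. Pairs that are not neighbours were as alike, with 0.97 for Hoxb2 with Hoxb4, 0.95 for Hoxb3 with Hoxb5 and 0.91 for Hoxb6 with Hoxb8. Left without heart, the anterior neighbours kept r of 0.86, 0.93 and 0.85, Hoxb5 with Hoxb6 had 0.75, and the posterior pairs fell to 0.49, 0.22 and 0.09. Over the same 6 organs Hoxb9 ran against Hoxb5, with r of -0.84, and against Hoxb3, with r of -0.80. The 7 and the 6 organs both include kidney, whose arrays were of high background, and no r without kidney is given.

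Of 18772 genes compared, the profile most like Hoxb2 was that of Hoxb4 (r of 0.97, and 0.96 without heart), and Rab38 was also among the closest (0.95 with and without). Hoxb3 was followed most closely by Fbxo2, Hoxb4 and Ano8 (0.98, 0.96 and 0.96, and without heart 0.97, 0.93 and 0.92). After Hoxb2, Hoxb4 had Sfmbt2 and Actn3 (both 0.97, and without heart 0.96 and 0.98). Hoxb5 had Kcnh3, Dusp14 and Slc25a13 (0.98, 0.96 and 0.96, and without heart 0.97, 0.87 and 0.96). For Hoxb6 and Hoxb7 every r was lower without heart. Hoxb6 had Slc25a13, Hoxb7 and Ro60 (0.98, 0.98 and 0.96, and without heart 0.76, 0.49 and 0.60). Hoxb7 had Hoxb6, Nipal1 and Cck (0.98, 0.97 and 0.96, and without heart 0.49, 0.71 and 0.72). Hoxb8 had Hoxa7 of the HoxA cluster, Clec2e and Cck (0.98, 0.94 and 0.94, and without heart 0.87, 0.80 and 0.62). Hoxb9 was matched by Spp1, which encodes osteopontin, Nrcam and Podnl1 (0.99, 0.96 and 0.95, and without heart 0.97, 0.92 and 0.93). The genes most like Hoxb1 were Mak, Cldn1 and Slc26a5, and since Hoxb1 itself was measured on high-background arrays alone, nothing is read from them.

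The paralogues in the other clusters are related genes of the same group numbers. In heart 5 of 8 HoxA genes were lower (background 2.47%), led by Hoxa3 at -4.75 ± 0.29 (limma adjusted p = 1.1e-06). Also lower there were 3 of 5 HoxC genes, led by Hoxc6 at -6.40 ± 0.60 (limma adjusted p = 3.5e-05), and 0 of 5 HoxD genes. The medians were -2.77 for HoxA, -3.44 for HoxC and -0.49 for HoxD, beside -4.33 for HoxB, and where heart arrays were at the floor such medians are not sizes. Without the high-background arrays 8 of 8 HoxA, 5 of 5 HoxC and 1 of 5 HoxD genes were lower in heart (background 6.07%). In lung Hoxa3 was higher (3.37 ± 0.34, limma adjusted p = 0.00088), 1 of 8 HoxA genes (background 0.475%), as the HoxB gene of its group was. In skin Hoxc9 (5.54 ± 1.02, limma adjusted p = 0.015) and Hoxc6 (4.12 ± 0.71, limma adjusted p = 0.0099) were higher, 2 of 5 (background 0.906%), beside Hoxb9. In liver 2 of 5 HoxC genes were lower (background 0.579%), among them Hoxc9 at -5.36 ± 0.86 (limma adjusted p = 0.0062). In gonad, where no HoxB gene was called, 3 of 5 HoxD and 2 of 5 HoxC genes were higher (background 2.27%). More of these genes were called on the 13 arrays. There 5 of 8 HoxA genes were higher in lung. In liver 4 of 8, Hoxa2 to Hoxa5, were higher and 1 of 8, Hoxa9, was lower (background lower 3.73%). All 5 HoxC genes were higher in skin and in gonad, and 4 of 5 HoxD genes in gonad. The shares of all genes called higher on these arrays were those given above, 1.56% in lung, 2.55% in liver, 21.2% in skin and 4.64% in gonad.

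**Figure D5:**
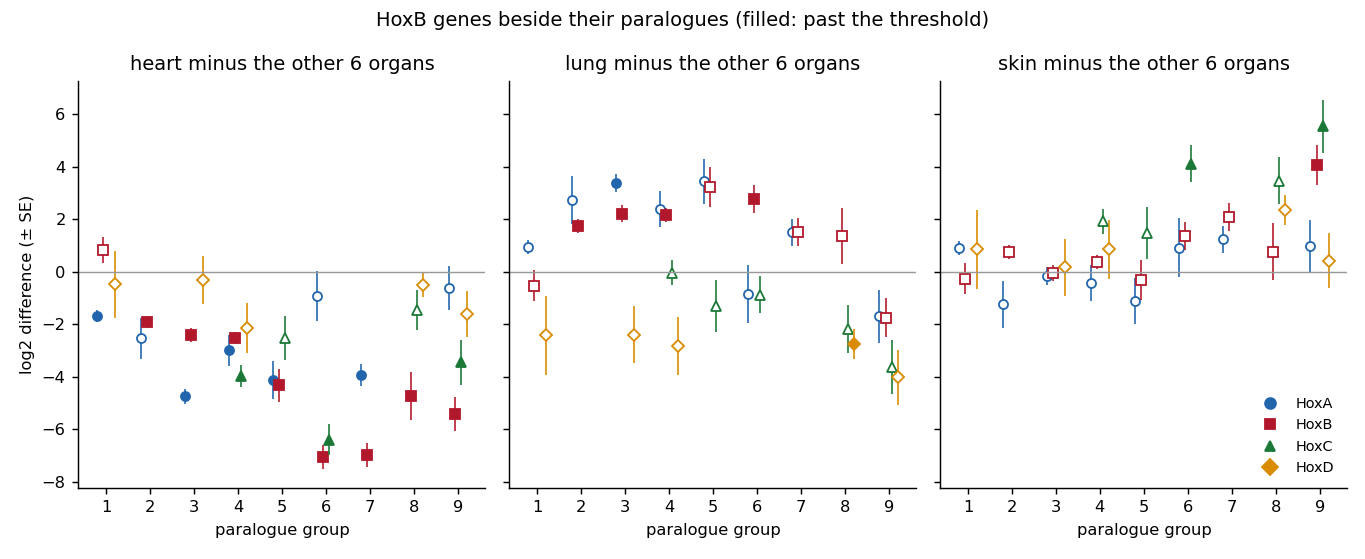
Log2 difference of heart, lung and skin from the other 6 organs (vertical axis, ± SE) by paralogue group number (horizontal axis), with HoxB genes as squares and the HoxA, HoxC and HoxD genes of the same groups as circles, triangles and diamonds; filled symbols passed the threshold. In heart the HoxB squares from group 2 to group 9 are all filled and negative, and in skin the filled symbols are Hoxc6, Hoxb9 and Hoxc9.

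Of 10 genes flanking the cluster that were tested, 0 were called in heart, liver, lung, skin, tail or gonad, and the median difference in heart was -0.12. The shares of all genes called there were those given above, at most 4.58% in 1 direction, and 0 of 10 is near them. Among 9 tested on the 13 arrays, 0 were called in heart, liver or lung, Skap1 was higher in gonad (1.64), and Gip was lower in gonad (-2.99) and higher in skin (2.68) and tail (2.29). Of 9 TALE cofactors, the MEIS, PBX and PKNOX partners of HOX proteins on DNA, 0 were called in heart. In liver 1 was higher (Meis1, 1.72 ± 0.39, limma adjusted p = 0.04, background 1.16%). In tail 1 was lower (Meis1, -1.41 ± 0.39, limma adjusted p = 0.04, background 2.49%). With 13 arrays Pknox2 was higher in heart (1.57, limma adjusted p = 0.00023, background 3.62%). Meis1 was higher in liver and in lung (1.53) and lower in tail (-2.07), against 2.55%, 1.56% and 5.53% of all genes. Pbx4 was lower in gonad (-1.32) and higher in skin (1.66), 1 of 9 each. Backgrounds there were 19.1% and 21.2%, so nothing is read from the Pbx4 calls. Of 21 Polycomb and Trithorax genes, which silence and maintain Hox clusters, 0 were called in any organ but kidney over 18 arrays. On the 13 arrays 1 of 20, Ezh2, was lower in tail (-1.15), near the background of 5.53%. Of 19 upstream regulators, 3 were higher in heart (background 1.47%) and 0 were lower. The retinoic acid enzymes Aldh1a1 (3.07 ± 0.49, limma adjusted p = 0.002) and Aldh1a2 (2.58 ± 0.43, limma adjusted p = 0.0026) were among these 3. In tail 4 of the 19 were higher and 4 lower (backgrounds 4.58% and 2.49%). In gonad 2 were higher and 1 lower (backgrounds 2.27% and 0.882%). Aldh1a2 was also higher in lung (2.86 ± 0.51, limma adjusted p = 0.023), 1 of 19 there (background 0.475%). It was lower in tail (-4.55 ± 0.43, limma adjusted p = 2.6e-05). Retinoic acid is known to induce anterior Hox genes in the embryo. The part of these regulators in the HoxB differences was not tested.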

How the data were processed

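RNA of 19 fibroblast cultures was hybridised to 1-colour Agilent arrays. The deposited scanner files hold spot intensities (gProcessedSignal, background-subtracted by Agilent Feature Extraction 11.0.1.1 per the file headers) and flags for signals well above background; the array design uses the mouse build mm9 per the file headers. Lung replicate 2 had only a column of the deposited value table, whose intensities are raw medians, used as an alternative up to the row where it shifts. Outlier spots were left out. Each array's log2 signal was taken relative to its 75th percentile, spots of a probe were averaged, and 1 probe stood for each gene. Probes well above background on fewer than 2 arrays were dropped, which left 20191 genes. Organs were compared with limma 3.58.1 (R 4.3.3) using all 18 arrays and Benjamini-Hochberg adjustment over all genes. Tables and plots were made with Python 3.11.15, numpy 2.4.6, pandas 2.3.3 and matplotlib 3.10.9. The number of arrays limits the precision.

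Named genes are all 9 members, the 3 genes most correlated with each over organ means, and the called members of the lists. Some genes that this rule names are not reported here. Members and lists were chosen with earlier results of these data known. Alternatives were other normalizations, dim-probe filters, probe rules, eBayes settings, slide and replicate blocks, the value table, leaving out the 5 high-background arrays and leaving out each array. Data simulated for the heart comparison held 20191 genes, with 50 changed genes per size. On them limma recovered 14, 26, 41 and 44 at log2 shifts of 1.5, 2, 3 and 4, with 2 false calls. The simulation used normal noise of 1 SD per gene on all arrays, without high-background arrays or other organ differences. Its recovery and false calls therefore do not carry over to the real arrays. Promoters came from RefSeq (GRCm38.p6).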

Additional observations from a re-analysis of the deposited data

Results flagged for a closer look

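The array also carries probes named only by an interval of chromosome 11 (mm9) in and around the HoxB cluster, which no comparison used. Their counts of arrays well above background, of the 13 with normal background, are given here. In the interval from 96111499 to 96126224, the 4 probes of the forward strand were above background on 7, 7, 10 and 13 arrays, and the 4 of the reverse strand on 13, 5, 13 and 1. In the interval from 96112907 to 96125798, the 3 forward probes were above background on 6, 13 and 6 arrays. In the interval from 96173788 to 96174352, the 3 forward probes were above background on 8, 12 and 7 arrays. In the interval from 96175764 to 96176029, all 3 forward probes were above background on 11, 11 and 11 arrays, the number found for Hoxb5 to Hoxb9.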

How the results depend on the processing

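The heart differences of Hoxb2 and of Hoxb4 to Hoxb9 stayed called under all 13 alternatives; that of Hoxb3 was lost with its other probe. Counts of the 9 genes that moved by over 1.5 times follow; the cause was not tested. Quantile normalization gave 1 higher in gonad, 2 lower in kidney, 1 higher in liver and 3 higher in skin. Normexp with quantile normalization gave 2 lower in kidney, 2 higher in skin and 0 higher in tail. Scaling by the median of probes measured on all arrays gave 0 lower in kidney, and 0 higher and 1 lower in tail. A filter of at least 9 arrays gave 1 higher in kidney and 1 lower in liver. The variance trend with robust eBayes gave 1 lower in liver and 2 higher in skin. The slide block gave 1 higher in kidney and 0 in tail. The value table gave 1 higher in kidney, 1 lower in liver and 2 higher in skin. Without the 5 high-background arrays, 3 were higher in gonad, skin and tail each, and 1 was lower in liver and in tail; with normexp added, 1 was higher in gonad, 2 in skin and 2 in tail, and 1 was lower in liver and in lung. With the replicate block, 1 was higher in kidney, 2 in lung, 0 in skin and 0 in tail. Whether samples with the same replicate number belong together is not given. Of 46 same-number pairs the median correlation was -0.036, with a range of -0.85 to 0.779, and 13 lay above 0.1. Of 92 pairs of different number the median was 0.017 and 31 lay above 0.1. With so wide a range these correlations cannot decide on a pairing. Smaller moves were also seen. The count higher in liver, 3 as reported, was 4 with normexp, the value table and both fits of 13 arrays, and 2 with the mean of probes and the other probe of Hoxb3. The count higher in lung, 4 as reported, was 6 with the value table and on 13 arrays, 5 with the variance trend and with normexp on 13 arrays, and 3 with quantile normalization, median scaling, the mean of probes, the slide block and the other probe. An equal count can hold other genes: the lung call of Hoxb2 and the tail call of Hoxb9 were lost with normexp and with quantile normalization. Reversed differences were Hoxb1 in kidney, -0.012 with normexp and -0.55 with quantile normalization, and Hoxb3 in liver, -0.075 by its other probe.

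Leaving out 1 array at a time gave 7 to 8 genes in the F test and 7 to 8 lower in heart. It gave 0 to 1 higher in gonad, 1 to 2 higher and 0 to 1 lower in kidney, 2 to 4 higher and 0 to 1 lower in liver, 0 to 6 higher in lung, 0 to 3 in skin, 0 to 2 in tail and 56 to 93 called pairs. The lowest lung and skin counts came without one of their own arrays, and the highest lung, skin, tail and gonad counts without heart 1. No spot was saturated, so the alternative on saturated spots was not run.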
